A study of Homo sapiens with 6 samples.

Results

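The genes described here encode ligands, receptors, an inhibitor and a target of transforming growth factor beta (TGF-beta), activin and bone morphogenetic protein (BMP) signalling. They were chosen by name, with earlier results of these data known. Of 9 symbols listed, 8 had a row among 16659 genes (TGFB2, INHBA, INHBE, BMP4, TGFBR1, TGFBR2, SMAD7 and ID1), and the other is not analysed here. RNA came from HepaRG, a cancer cell line of human liver described in the labels as a hepatic stem cell line, with 3 libraries of wild-type cells, the control group, and 3 of cells labelled as a functional knockout of PXR. PXR, the pregnane X receptor encoded by NR1I2, is a nuclear receptor that switches on drug metabolism genes. All cells were without drug treatment, and the labels do not say how the knockout was made or whether it is 1 clone. Nothing in the labels says that libraries came from separate cultures, so a p-value here weighs the group difference against a spread that may be technical.

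Ligands of this family are dimers that bring type II and type I receptor kinases together on the cell surface. TGF-beta and activin receptors phosphorylate SMAD2 and SMAD3, BMP receptors phosphorylate SMAD1, SMAD5 and SMAD9, and both kinds of SMAD enter the nucleus with SMAD4. Inhibitory SMADs, which the signal itself induces, block the receptors. In liver, TGF-beta is known for halting hepatocyte growth and for driving matrix deposition by stellate cells, and BMP signalling for setting the level of the iron hormone hepcidin.

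Levels are in scaled CPM, the deposited reads relative to a scaled library size, and errors of levels are the SD over n = 3 libraries. Estimated depths were 11359209 to 20945994 reads in wild type and 28154914 to 33393110 in the knockout, so the knockout libraries were all deeper. Changes are knockout minus wild type on the log2(scaled CPM + 0.5) scale with their standard error (SE), which understates the change of low genes, and they were tested with limma over 16219 genes with Benjamini-Hochberg adjustment at 0.05. NR1I2 itself had 7.63 ± 0.60 CPM in wild type and 13.6 ± 0.62 CPM in the knockout, and a level summed over the gene does not check loss of function. Measured hepatocyte markers rose at 7 of 7 genes, their summed level going from 2212 to 2285 CPM in wild type to 42706 to 43900 CPM in the knockout. Sums of stellate or mesenchymal markers went from 123 to 129 CPM to 481 to 505 CPM (3 rose and 4 fell of 7 tested, with DCN, ACTA2 and LUM the genes that rose and DES and PDGFRB among those that fell). Sums of cholangiocyte markers, of which 4 of 8 listed had a row, went from 489 to 515 CPM to 373 to 399 CPM (KRT19 and SOX9 rose, SPP1 and KRT7 fell). Among these, SPP1 fell from 382 ± 12.4 to 43.6 ± 1.46 CPM, while KRT19 rose from 111 ± 2.89 to 334 ± 12.2 CPM. Sums of endothelial markers went from 54.8 to 55.1 CPM to 215 to 222 CPM (KDR rose, PECAM1 fell). Those of macrophage or leukocyte markers went from 13.6 to 16.8 CPM to 22.7 to 24.1 CPM (2 rose, 1 fell). In bulk RNA, fewer cells of a type and less RNA per cell cannot be told apart, and the part of these marker differences in the results that follow was not tested.

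Most of the measured pathway members were higher in the knockout. Among the 7 members tested, the activin subunit gene INHBE changed most, 3.67-fold on the fitted scale, followed by the ligand BMP4, the type I receptor TGFBR1 and the BMP target ID1 at 1.80-, 1.73- and 1.57-fold. SMAD7, the inhibitory SMAD, was 1.27-fold lower. INHBA, too low to be tested with them, had a larger ratio than INHBE in its few reads. The ligand TGFB2 and the type II receptor TGFBR2 differed by less than 1.1-fold. Of the 7 members tested, 5 rose, 1 fell and 1 did not pass, in a comparison in which 79.9% of all genes tested passed (40.3% higher and 39.6% lower). With 6 of 7 members called, the share was close to that background. A change of at least 2-fold was seen for 1 of the 7, against 22.7% of all genes tested. The median log2 change of the 7 was 0.65, against 0.014 over all genes tested and 0.028 over 70 other tested genes of the pathway. Because the members were chosen with earlier results of these data known, their median does not speak for the pathway as a whole. With columns rescaled to equal sums, which removes the factor per library and puts the median of all genes at -0.12, the split of called members was 4 higher and 2 lower.

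**Figure D1:**
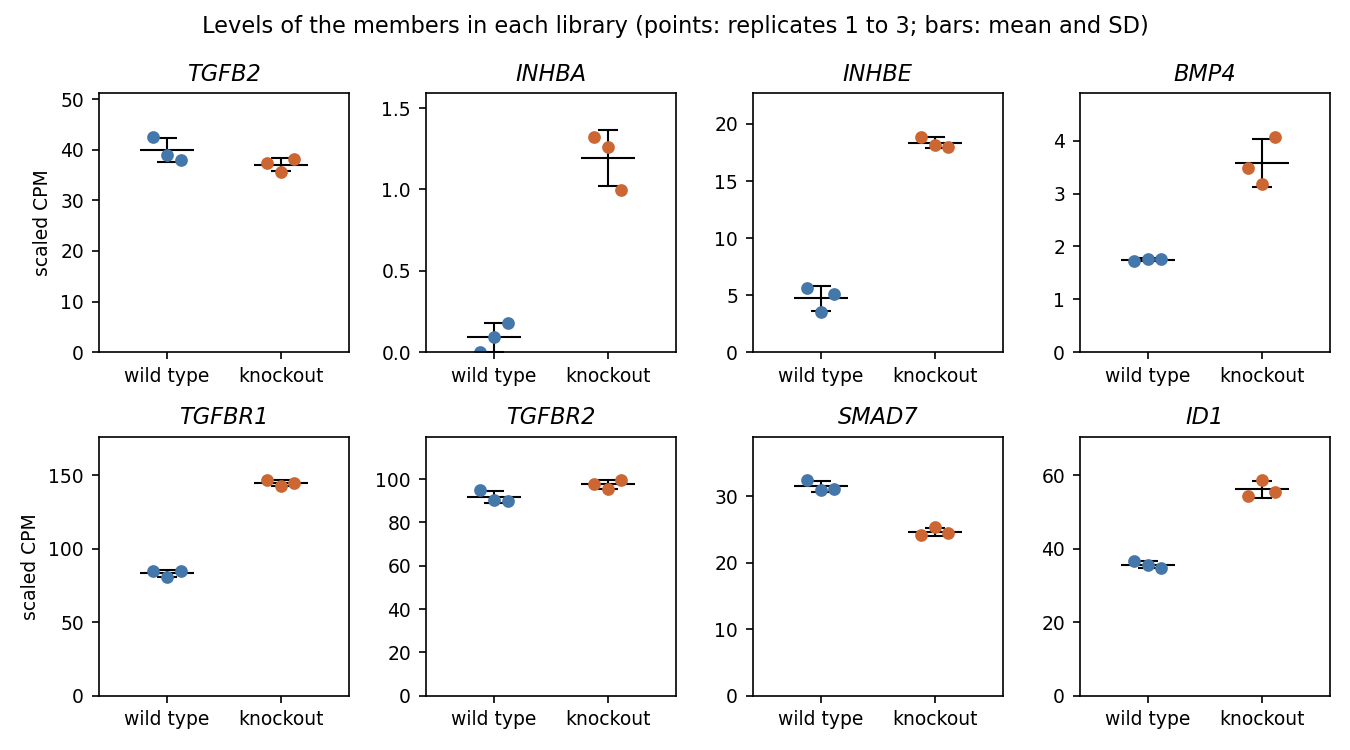
Scaled CPM of each member in each library on linear axes from 0, with points for replicates 1 to 3 and bars for the mean and SD of 3 libraries. INHBE, BMP4, TGFBR1 and ID1 lie higher and SMAD7 lower in the knockout, while TGFB2 overlaps between the groups and TGFBR2 is separated by less than 1 CPM.

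TGFB2 (ENSG00000092969.12, chromosome 1, 218346235 to 218444619 in GRCh38), the TGF-beta ligand measured here, had 42.6, 39.0 and 38.1 CPM in the wild-type replicates and 37.4, 35.7 and 38.1 CPM in the knockout replicates, each time in the order 1, 2 and 3, as for all members here. The groups overlapped at knockout library 3, which lay just above wild-type library 3. The log2 change was -0.10 ± 0.050 with a 95% interval from -0.21 to 0.0038, and it did not pass the test (limma adjusted p = 0.0706). This sits near the threshold: without wild type replicate 3 the change was -0.14 and passed (adjusted p = 0.0361), as it did with equal sums (-0.24, adjusted p = 0.000607). A related ligand, TGFB3, was at 2.55 ± 0.15 and 2.61 ± 0.19 CPM (adjusted p = 0.822).

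Activin subunits pair with each other through their beta chains, and INHBE encodes the beta E chain, made mainly by hepatocytes. INHBE (ENSG00000139269.3, chromosome 12, 57452323 to 57459280) had 5.61, 3.49 and 5.08 CPM in wild type and 18.9, 18.2 and 18.02 CPM in the knockout. All 3 knockout libraries were far higher than all 3 wild-type libraries. The log2 change was 1.88 ± 0.13 (limma adjusted p = 6.1e-09), higher than that of 94.8% of genes tested. The median change of the 224 tested genes within 10 Mb of INHBE was 0.50 and that of chromosome 12 was 0.33.

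The neighbouring gene INHBC, for the beta C chain that liver also makes, ends 1494 bases before INHBE starts on chromosome 12. INHBC went from 0.27 ± 0.077 CPM, or 14 estimated reads over 3 libraries, to 12.2 ± 0.78 CPM, a log2 change of 4.06 ± 0.13. INHBB, for the beta B chain, rose from 19.2 ± 1.55 to 31.8 ± 0.66 CPM. INHA, for the alpha chain that turns activins into inhibins, fell from 3.33 ± 0.0996 to 1.86 ± 0.15 CPM.

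INHBA (ENSG00000122641.11, chromosome 7, 41667168 to 41705834), for the beta A chain of activin A, was near the limit of detection in wild type. It stood at 0, 0.0957 and 0.180 CPM in the wild-type replicates, from 0, 2 and 4 estimated reads, and 1.32, 1.26 and 0.996 CPM in the knockout, from 43, 34 and 32 reads. The groups did not overlap, which held for 80.8% of genes tested (40.8% with the knockout higher and 40.0% with it lower). INHBA did not pass the filter on low values (above 1 CPM in at least 3 libraries) because knockout library 3 fell just short of it, so it has no test among the 16219 genes. In pooled reads, 6 against 109, its level was 10.96 times higher in the knockout, with a 95% exact interval of 4.88 to 30.5 that covers counting error only. Without the filter, where 79.0% of genes passed, its log2 change was 1.52 ± 0.16 (limma adjusted p = 1.7e-06). The antisense gene INHBA-AS1 overlaps INHBA in GENCODE 29, and whether counting used the strand is not given in the sources used here, so reads of that gene may be included. The same limit holds for pseudogenes on the opposite strand within TGFBR1 and TGFBR2, and TGFB2-OT1 overlaps TGFB2 on its own strand, where even stranded counting may share reads. The median change on chromosome 7 was 0.43.

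BMP4 (ENSG00000125378.16, chromosome 14, 53949736 to 53958761), a BMP ligand, had 1.73, 1.77 and 1.75 CPM in wild type and 3.48, 3.19 and 4.08 CPM in the knockout. The 3 wild-type values lay within 0.05 CPM of each other, and all 3 knockout values were higher. The log2 change was 0.85 ± 0.13 (limma adjusted p = 2.4e-05), from 97 estimated reads in wild type and 330 in the knockout. Among other ligands of this branch, BMP2 rose from 9.25 ± 0.13 to 13.96 ± 0.59 CPM and GDF7 from 2.53 ± 0.67 to 11.1 ± 0.99 CPM. BMP7, at 2.52 ± 0.17 and 2.15 ± 0.89 CPM, did not pass (adjusted p = 0.289).

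The receptor pair for TGF-beta was measured in full. TGFBR1 (ENSG00000106799.13, chromosome 9, 99104038 to 99154192), the type I receptor kinase that phosphorylates SMAD2 and SMAD3, had 84.8, 80.6 and 84.4 CPM in wild type and 147, 142 and 145 CPM in the knockout. The groups were far apart compared with their SDs of 2.35 and 2.14 CPM, and the log2 change was 0.79 ± 0.031 (limma adjusted p = 1.2e-11). The median change of chromosome 9 was 0.16.

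TGFBR2 (ENSG00000163513.17, chromosome 3, 30606502 to 30694142), the type II receptor that binds the ligand first, had 95.1, 90.5 and 89.96 CPM in wild type and 97.6, 95.4 and 99.5 CPM in the knockout. Wild-type library 1 and knockout library 2 almost touched. The log2 change of 0.086 ± 0.033 passed (limma adjusted p = 0.0281), but its direction turned with equal sums (-0.051, adjusted p = 0.189), and the call was lost with quantile normalization (0.033, adjusted p = 0.383), without the mean-variance trend (adjusted p = 0.0929), and without wild type replicate 2 or 3 or PXR knockout replicate 1 or 3 (0.071 to 0.085, adjusted p = 0.0576 to 0.109).

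A ratio of both receptors within a library does not depend on the factor per library. TGFBR1 was at 0.892, 0.890 and 0.939 times the level of TGFBR2 in wild-type libraries 1 to 3, in scaled CPM without regard to length, and at 1.501, 1.49 and 1.46 times in knockout libraries 1 to 3. The ratio was therefore higher in every knockout library, by 0.71 on the log2 scale (two-sided exact permutation p = 0.1, the smallest that 3 libraries against 3 allow). TGFBR1 was at most 84.8 CPM in wild type and at least 142 CPM in the knockout. TGFBR2 lay between 89.96 and 99.5 CPM in all libraries. The ratio thus had to separate, and its p-value adds no evidence beyond that of TGFBR1 itself. This ratio and the next were chosen after their values were seen, and 3 ratios were computed.

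SMAD7 (ENSG00000101665.9, chromosome 18, 48919853 to 48952052), which binds activated type I receptors and recruits ubiquitin ligases to them, had 32.4, 30.9 and 31.0 CPM in wild type and 24.1, 25.3 and 24.5 CPM in the knockout. All 3 knockout values were lower than all wild-type values. The log2 change was -0.35 ± 0.048 (limma adjusted p = 1.3e-05), and the median change of chromosome 18 was -0.0072.

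ID1 (ENSG00000125968.9, chromosome 20, 31605283 to 31606515), a dominant negative partner of basic helix-loop-helix factors and a direct target of BMP SMADs, had 36.5, 35.6 and 34.7 CPM in wild type and 54.2, 58.6 and 55.5 CPM in the knockout. Each knockout library exceeded each wild-type library, by a log2 change of 0.65 ± 0.043 (limma adjusted p = 3.7e-09), while the median change of chromosome 20 was -0.10. Within libraries, the ratio of ID1 to SMAD7 was 1.13, 1.15 and 1.12 in wild type and 2.25, 2.32 and 2.27 in the knockout (log2 difference 1.01, two-sided exact permutation p = 0.1, again the smallest possible), and that of TGFBR1 to SMAD7 went from 2.65 ± 0.063 to 5.87 ± 0.23 (log2 difference 1.15, two-sided exact permutation p = 0.1). ID1 and TGFBR1 were higher and SMAD7 lower in every knockout library, so both ratios to SMAD7 had to separate. Their p-values were thus fixed by the single genes and add no further evidence. SMAD7 and ID1, both known as SMAD targets, differed in opposite directions.

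**Figure D2:**
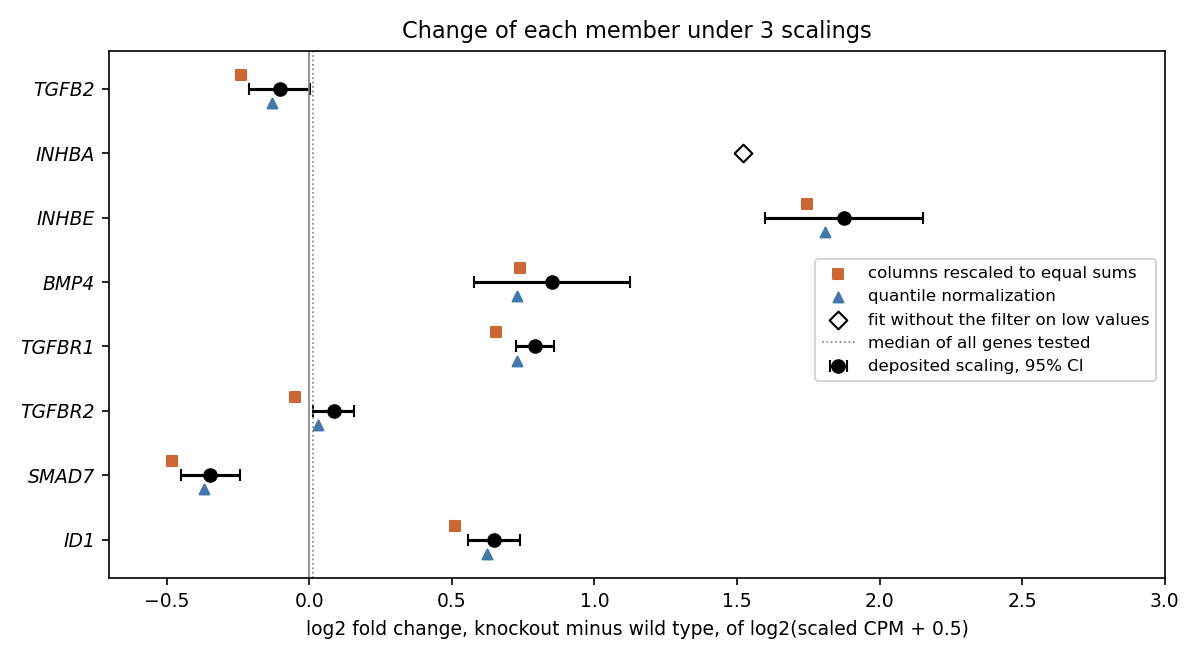
Log2 change of each member, knockout minus wild type, with the deposited scaling (points, 95% interval) and with columns rescaled to equal sums (squares) or quantile normalization (triangles); INHBA is shown from the fit without the filter. INHBE lies at 1.88, TGFBR1, BMP4 and ID1 between 0.65 and 0.85, SMAD7 at -0.35, and TGFBR2 is the member whose direction turns with equal sums.

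The promoters of SMAD7 and of 3 members that rose are shown because SMAD7 and ID1 are themselves SMAD targets and moved apart. They are the 250 bases before the first start listed for each gene in RefSeq's table (GRCh38.p14), which matched 7 of the 8 members and lists several starts for SMAD7, BMP4 and TGFBR1. For these 3 genes GENCODE 29 has a transcript that starts farther upstream, so the window lies inside the annotated gene. Capitals mark CAGAC, read as GTCTG from the other strand, a core to which SMAD3 and SMAD4 bind, and GGCGCC, a GC-rich motif bound by BMP SMADs; the palindrome GTCTAGAC, which holds no CAGAC, was also searched. Windows are chr18:48950966-48951215 (minus strand), chr20:31605039-31605288 (plus strand), chr9:99104863-99105112 (plus strand) and chr14:53955051-53955300 (minus strand), written 5′ to 3′ along the gene.
SMAD7: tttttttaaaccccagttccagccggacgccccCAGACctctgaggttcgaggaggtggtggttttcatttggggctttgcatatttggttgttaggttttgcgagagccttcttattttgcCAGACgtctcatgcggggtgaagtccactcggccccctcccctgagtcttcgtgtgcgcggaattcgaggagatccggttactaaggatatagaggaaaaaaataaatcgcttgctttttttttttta
ID1: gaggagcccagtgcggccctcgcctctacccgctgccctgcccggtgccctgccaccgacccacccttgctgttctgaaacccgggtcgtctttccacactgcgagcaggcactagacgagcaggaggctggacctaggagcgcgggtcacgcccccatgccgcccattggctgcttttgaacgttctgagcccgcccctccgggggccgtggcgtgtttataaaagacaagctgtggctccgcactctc
TGFBR1: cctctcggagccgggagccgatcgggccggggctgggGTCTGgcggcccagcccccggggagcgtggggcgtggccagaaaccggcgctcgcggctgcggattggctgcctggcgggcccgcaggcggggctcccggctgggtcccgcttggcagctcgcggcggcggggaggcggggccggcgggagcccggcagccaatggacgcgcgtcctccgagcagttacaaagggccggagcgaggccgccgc
BMP4: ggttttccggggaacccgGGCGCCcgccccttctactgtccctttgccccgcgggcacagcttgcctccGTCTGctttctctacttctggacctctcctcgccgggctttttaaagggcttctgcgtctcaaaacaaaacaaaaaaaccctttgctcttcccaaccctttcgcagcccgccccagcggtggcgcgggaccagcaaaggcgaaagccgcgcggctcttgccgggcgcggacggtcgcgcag
SMAD7 held 2 matches to CAGAC, TGFBR1 held 1, and BMP4 held 1 as well as 1 to GGCGCC, while ID1 held none of the 3 motifs in this window. GTCTAGAC was found in none of the windows of the 7 members, that of SMAD7 included. Over 27305 RefSeq promoters of the same length, 37.8% held CAGAC, 16.1% GGCGCC and 0.176% GTCTAGAC. Among the members not printed, TGFB2 held 2 matches to CAGAC, and TGFBR2 and INHBA held none. The INHBA window (chr7:41703091-41703340, minus strand) also lies inside the annotated gene. Both strands were searched for every motif. The nuclear receptor half-sites AGGTCA and, with a single letter changed, AGTTCA are the building blocks of elements that PXR binds, and were found in 12.1% and 8.91% of promoters. Among the 7 members, TGFBR2 held 1 AGTTCA and there was no other match. A match in such a window is a description of letters, and its absence says nothing about binding elsewhere.

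Levels can be compared between genes per kb of annotated exon. In wild type ID1 was highest at 28.9 ± 0.73 CPM per kb, ahead of TGFBR2 at 19.5 ± 0.60, TGFBR1 at 12.2 ± 0.34, TGFB2 at 7.74 ± 0.46, SMAD7 at 6.25 ± 0.16, INHBE at 1.57 ± 0.37, BMP4 at 0.569 ± 0.0065 and INHBA at 0.0111 ± 0.011 CPM per kb. No neighbours in this order overlapped between libraries. In the knockout, TGFBR1 at 21.1 ± 0.31 CPM per kb and TGFBR2 at 20.7 ± 0.43 CPM per kb overlapped, and INHBE at 6.09 ± 0.15 CPM per kb stood above SMAD7 at 4.89 ± 0.12 CPM per kb. Exon lengths are the union over all annotated transcripts, so these levels are approximate.

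**Figure D3:**
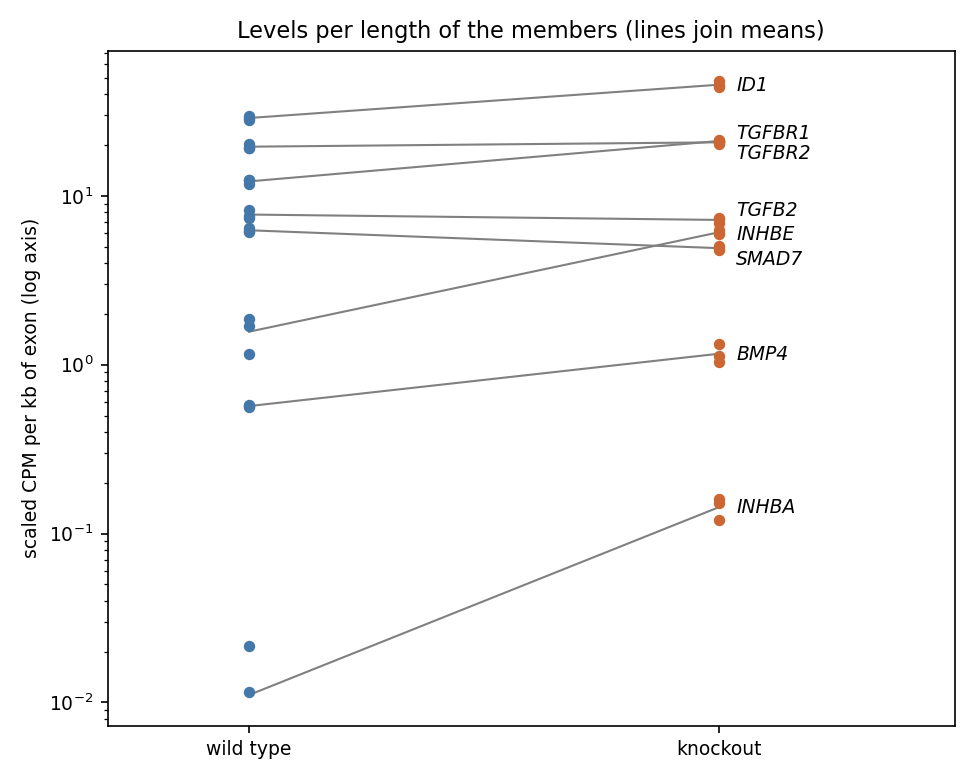
Scaled CPM per kb of exon of each member on a log axis, with a point per library and lines joining the means; the wild-type library in which INHBA was at 0 has no point. TGFBR1 reaches the level of TGFBR2 in the knockout, and INHBE crosses SMAD7.

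Other genes of the pathway changed in both directions. Of a list of 100, 71 had a row and 70 were tested: 30 rose, 25 fell and 15 did not pass, with a median log2 change of 0.028 against 0.014 over all genes tested. Thus 55 of 70 were called, where 79.9% of all genes were; 17 rose and 9 fell by at least 2-fold. The remaining gene, the BMP antagonist NOG, was too low to test.

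Among receptors and co-receptors, 3 rose, 5 fell and 4 did not pass. HJV (hemojuvelin), the BMP co-receptor that drives hepcidin expression, rose from 2.23 ± 0.27 to 47.3 ± 0.98 CPM (log2 4.13 ± 0.085). ACVR1B, the type I receptor for activin, rose from 37.5 ± 2.897 to 97.1 ± 1.39 CPM. The activin type II receptors ACVR2A and ACVR2B fell: ACVR2A had 27.7 ± 0.74 CPM in wild type and 19.3 ± 0.72 CPM in the knockout, and ACVR2B had 32.6 ± 0.52 and 20.2 ± 0.78 CPM. The BMP type I receptors ACVR1 and BMPR1B also fell, BMPR1B from 8.99 ± 0.63 to 3.65 ± 0.42 CPM, while the BMP type II receptor BMPR2 rose from 40.3 ± 1.03 to 55.6 ± 1.32 CPM.

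Of the 6 SMADs that carry the signal, 1 rose, 2 fell and 3 did not pass. SMAD3 fell from 56.6 ± 0.92 to 33.3 ± 2.22 CPM, while SMAD2, with which it shares the TGF-beta branch, was at 163 ± 3.88 and 163 ± 1.89 CPM and did not pass (adjusted p = 0.969), although it was lower and passed with equal sums (-0.14) and with quantile normalization (-0.10). In the BMP branch SMAD5 rose from 88.9 ± 1.55 to 127.97 ± 4.15 CPM and SMAD9 fell from 10.2 ± 1.21 to 3.38 ± 0.13 CPM. The shared partner SMAD4 was at 99.2 ± 1.65 and 103 ± 3.89 CPM (adjusted p = 0.163).

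Inhibitors inside the cell or at its membrane rose at 5 genes, fell at 3 and did not pass at 3. BAMBI, a decoy receptor without kinase activity, rose from 13.5 ± 0.45 to 36.4 ± 1.03 CPM, and PMEPA1, which sequesters SMAD2 and SMAD3, from 13.7 ± 0.37 to 32.6 ± 1.19 CPM. SMURF1, a ubiquitin ligase, rose from 44.8 ± 1.24 to 86.3 ± 3.06 CPM. SMAD6, the inhibitory SMAD of the BMP branch, fell from 15.8 ± 0.63 to 7.64 ± 0.37 CPM, so that both inhibitory SMADs were lower in the knockout.

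Extracellular antagonists rose at 3 genes and fell at 4 of 7. The activin binding proteins FST and FSTL3 rose, FST from 0.54 ± 0.22 to 7.97 ± 1.14 CPM and FSTL3 from 67.5 ± 3.62 to 129 ± 3.96 CPM. BMPER, a BMP binding protein, rose from 0.88 ± 0.16 to 11.1 ± 0.91 CPM. NBL1 fell from 33.98 ± 1.87 to 7.93 ± 0.45 CPM and the BMP antagonist CHRD from 31.9 ± 0.39 to 18.6 ± 0.29 CPM. Wild-type levels of FST and BMPER rested on 32 and 47 estimated reads over 3 libraries.

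TGFB3 and the genes that hold latent TGF-beta in the matrix or release it rose at 4 and fell at 3 of 9. ITGB6 and ITGB8, integrin chains that activate latent TGF-beta, rose from 6.91 ± 0.55 to 50.99 ± 1.14 CPM and from 5.03 ± 0.63 to 13.5 ± 0.98 CPM. THBS1, a matrix protein that also activates it, fell from 492 ± 4.58 to 183 ± 1.44 CPM. Ligands of the BMP and GDF group rose at 4 of 5 genes, and GDF15, a distant family member that is also a known p53 target, went from 16.9 ± 1.16 to 157 ± 5.23 CPM.

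Target genes of the branches were mixed. Of 10 genes known to respond to TGF-beta, 5 rose and 3 fell. CDKN2B, a cell cycle inhibitor, rose from 25.6 ± 1.08 to 77.3 ± 1.31 CPM, whereas TGFBI fell from 365 ± 4.23 to 146 ± 1.62 CPM. Of 6 BMP targets, 3 rose and 3 fell. ID2 and ID3, relatives of ID1, rose from 30.6 ± 1.43 to 61.7 ± 0.31 CPM and from 27.9 ± 1.69 to 56.3 ± 3.06 CPM, while ATOH8 fell from 151 ± 3.19 to 41.1 ± 0.23 CPM. All 3 measured ID genes therefore rose, by log2 changes of 0.65 to 1.004.

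**Figure D4:**
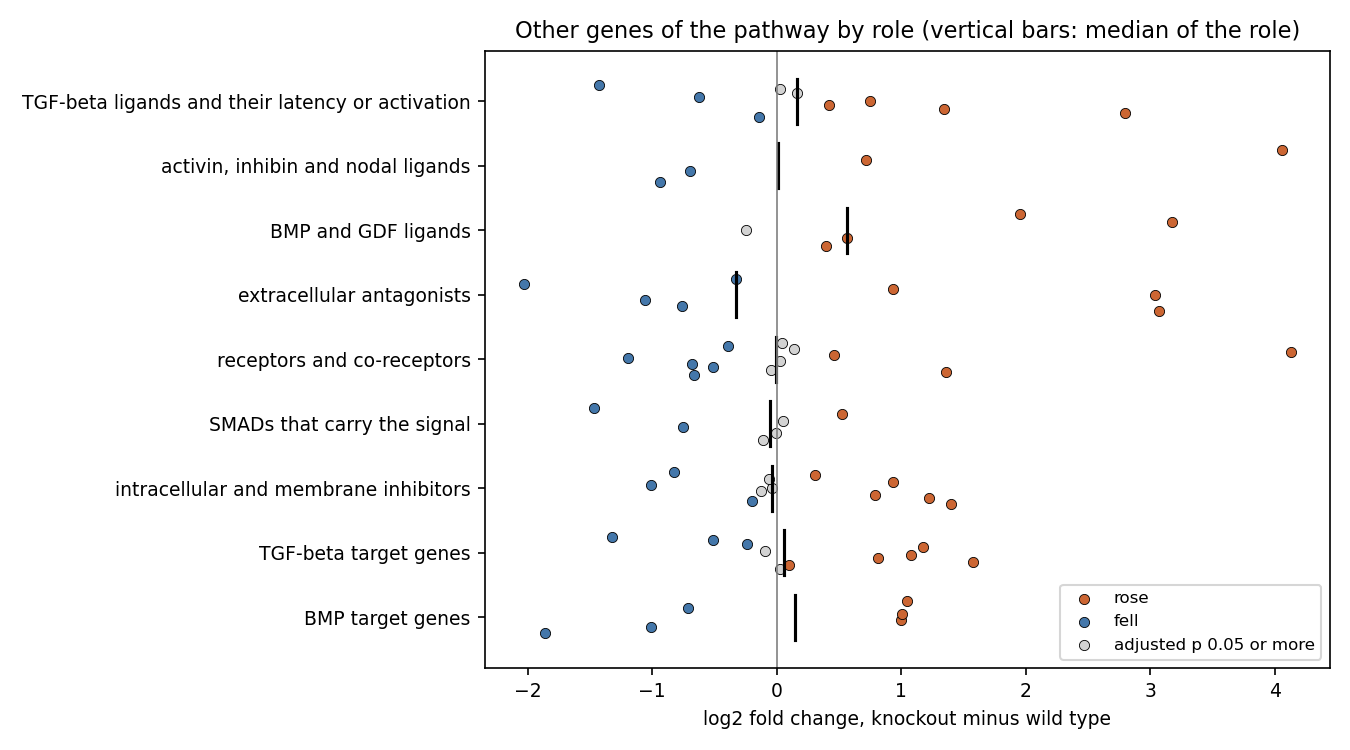
Log2 change of the 70 other tested pathway genes by role, coloured by call, with a vertical bar at the median of each role. Genes that rose and genes that fell occur in every role except the BMP and GDF ligands, where 4 rose and none fell.

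The gene nearest in pattern was found for each member among the tested members and pathway genes, as the root mean square difference of centred log2 values over 6 libraries. For TGFBR1 it was PPM1A, a phosphatase, at 0.020, for SMAD7 it was the BMP binding protein TWSG1 at 0.031, and for TGFBR2 it was CCN2 at 0.037. For TGFB2 it was SKI at 0.055, for ID1 it was INHBB at 0.063, for BMP4 it was SMURF1 at 0.077, for INHBE it was GDF7 at 0.11, and for INHBA it was ITGB8 at 0.14. With only 2 conditions, a small distance mainly reflects a like-sized change between the groups.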

How the data were processed

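RNA of untreated HepaRG cells was measured in 3 wild-type and 3 PXR knockout libraries, grouped and numbered by their labels. Per the labels' protocols, a stranded mRNA kit was used; hg38, Bowtie2, Trim Galore, FastQC, limma and edgeR appear in the submitters' processing notes, with version, annotation and filter not given in the sources used here. The authors deposited 1 table of normalized signal, named for log2 CPM but on a linear scale. Its values are multiples of a hundredth of a read, worth 0.031 to 0.082 CPM per read, which gave the estimated depths; under 20 reads only 67.2% to 76.3% were whole within 0.006 of a read, so no count test was used.

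Of 16673 rows, 14 duplicates of pseudoautosomal genes were dropped, and 21 symbols turned into dates were restored; 16608 genes matched GENCODE 29. Genes above 1 CPM in at least 3 of 6 libraries were tested with limma 3.58.1 in R 4.3.3 (empirical Bayes with trend, two-sided) on log2(scaled CPM + 0.5). On simulated data over 15375 genes, with 50 genes changed at each fold, the fit recovered 94% of 1.5-fold and 100% of 2-, 4- and 8-fold changes. There were 8 false calls among 205. Far fewer genes changed in the simulation than here and the same spread was set for all, so it does not show how the fit behaves on these data. Replicate pairs differed by more than sampling noise (mean chi-square per gene 2.25 to 9.80). The medians per gene were 0.64 to 0.91. These too lie above the median of a chi-square with 1 degree of freedom, so the excess was not confined to a few genes. The means were raised further by a part of the genes. Named genes are NR1I2, the members, up to 3 largest rises and falls per role, and the nearest gene to each member, of which 1 is not reported here; SMAD2, SMAD4, ACVR2A, TGFB3, BMP7, NOG and the cell type markers were named outside this rule after their values were seen. Members, lists and marker genes were chosen with earlier results of these data known. Alternatives were equal column sums, quantile normalization, other pseudocounts (0.1 and 1), filters (none and 5 CPM), no trend, a replicate block and leaving out each library.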

Additional observations from a re-analysis of the deposited data

How the results depend on the processing

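TGFBR1, SMAD7, INHBE, ID1 and NR1I2 kept their direction and call in all 14 alternatives, and BMP4 in all 13 in which it was tested (it did not pass the filter at 5 CPM). TGFBR2 turned to -0.051 with equal column sums and lost its call with quantile normalization (0.033), without the trend (0.086) and without any 1 of 4 of the libraries (0.071 to 0.11 over all 6 omissions). TGFB2 gained a call with equal sums (-0.24) and quantile normalization (-0.13), and ranged from -0.14 to -0.056 when libraries were left out. INHBA had a call only without the filter (1.52). Called members numbered 5 to 6 with a library left out. Of 50 named pathway genes past the threshold, 49 kept their direction in every alternative in which they were tested, and 48 also kept their call. INHBC and FST were tested in only 11 alternatives, and HEY1 and DAND5 in only 10. These genes fell below the filter when a library of their higher group was left out. CCN2 turned to -0.040 with equal sums and -0.024 with quantile normalization. Of those that did not pass, SMAD4 turned to -0.084 and -0.0062 and TGFB3 to -0.085 and -0.099 under the same scalings. With a library left out TGFB3 lay between -0.0056 and 0.080, BMP7 between -0.45 and 0.059 (above 0 without PXR knockout replicate 3), and SMAD2 between -0.020 and 0.014. SMAD2 passed with equal sums (-0.14) and quantile normalization (-0.10), and SMAD4 with equal sums and without PXR knockout replicate 3 (0.084). Same-numbered libraries did not deviate together (correlations of -0.020, -0.061 and 0.025), so no pairing by number was seen. This does not tell whether they were prepared together. With the number as a replicate block, 6 members and 12916 of 16219 genes passed, against 6 and 12960, and 56 in place of 55 pathway genes. Depth limits INHBA, with 6 wild-type reads in all. The cause of these shifts was not tested.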
